A study of Mus musculus with 12 samples.

Results

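Open chromatin in mouse liver was compared between atorvastatin and its vehicle control by ATAC-seq, in which the transposase Tn5 cuts accessible DNA, so that more reads over a stretch of DNA mean a more open stretch. Every library labelled as belonging to these groups was taken, 4 of atorvastatin and 4 of control, 8 of the 12 in the series. All mice were wild-type males of strain C57Bl/6N, 19 to 20 weeks old and on chow. Controls were gavaged with distilled water and treated mice with atorvastatin calcium salt trihydrate at 10 mg/kg. Gavage went on for 4 days and a 12 h fast followed, so both groups describe fasted liver. A group had 9 to 10 mice per the labels, and 100000 nuclei from 100 to 160 mg of frozen liver were tagmented for 45 min at 37 °C. The labels leave unstated whether a library stands for a single mouse, so the p-values below measure the spread between libraries only, which may be technical. The other 4 libraries, from mice given 100 mg/kg PCN, entered no main fit, and alternative fits used them for their spread. The choice of the region that stands for an enhancer locus, and of the most open 10% of promoters, used all 12 libraries. All 43511 deposited promoters, of 25124 gene symbols, were described. The 406518 deposited enhancer regions were merged where they overlapped into 197638 loci, of which 50.6% lay inside the body of a protein-coding gene.

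Statins block the mevalonate pathway, which supplies cholesterol and the isoprenoid tails of many proteins. In hepatocytes a fall in sterols releases the transcription factor SREBP2 from the endoplasmic reticulum, and SREBP2, often with NF-Y, turns on the genes of sterol synthesis and uptake. The comparison asks which promoters and enhancers of the liver open or close under the drug. Accessibility is not transcription, and a promoter that is already open can gain transcripts without gaining reads.

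Levels are given in CPM, counts scaled to the size and composition of each library, fold changes as log2 of atorvastatin over control with their approximate SE, and a feature is said to rise or fall where its Benjamini-Hochberg adjusted p by edgeR's quasi-likelihood test was under 0.05. The promoter table held 1679054 to 10493197 counts per control library and 4218336.5 to 15336000.5 per atorvastatin library, and the loci 298630 to 1725165.5 and 735078 to 4684696. Libraries control 3 and atorvastatin 3 stood apart. Their median correlation with the other 7 libraries across promoters was 0.691 and 0.741, against 0.89 to 0.963 for the other 6, and across loci it was 0.25 and 0.306 against 0.379 to 0.669. The main results are therefore given with all 8 libraries and with these 2 left out, called the 6-library fit. A lone value of a named feature is from all 8 libraries unless stated, and can differ in the 6-library fit. The liver identity of the samples was checked with 22 hepatocyte genes, such as Alb, Apoa1 and Ttr. Their promoters averaged 44.9 CPM, against 6.96 to 8.66 CPM for lymphocyte, neutrophil, erythroid and Kupffer cell genes and 11.0 to 16.5 CPM for stellate, endothelial and cholangiocyte genes. None of these marker promoters was at 0 in every library.

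The following stretches belong to the features on which the results turn. The first 3 are the 250 bases before a RefSeq start, read 5′ to 3′ on the gene's strand (GRCm38.p6). They are the Hamp window at chr7:30944030-30944279 (minus strand), the Hmgcs1 window at chr13:119690101-119690350 (plus strand) and the Ebp window at chrX:8193513-8193762 (minus strand). Hamp is shown because its promoter was among those that rose. Capitals mark GGCGCC, the core of the BMP-responsive element through which BMP signals drive hepcidin, which begins 109 bases before the start.
Hamp: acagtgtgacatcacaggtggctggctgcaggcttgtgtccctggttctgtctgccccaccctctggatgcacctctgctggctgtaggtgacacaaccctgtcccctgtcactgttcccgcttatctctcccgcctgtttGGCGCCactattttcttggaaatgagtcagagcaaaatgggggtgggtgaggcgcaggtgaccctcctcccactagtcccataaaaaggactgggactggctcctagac
Hmgcs1, which encodes the cytosolic HMG-CoA synthase, is shown as a sterol gene whose value was near 0. Capitals mark the SREBP motif TCACNCCAC, which begins 137 bases before the start.
Hmgcs1: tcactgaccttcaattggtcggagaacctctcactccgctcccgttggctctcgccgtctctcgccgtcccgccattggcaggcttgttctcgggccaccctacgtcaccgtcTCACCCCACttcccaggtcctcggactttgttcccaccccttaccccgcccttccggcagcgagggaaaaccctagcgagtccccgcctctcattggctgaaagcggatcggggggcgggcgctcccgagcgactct
Ebp, which encodes a sterol isomerase, is shown as the sterol gene with the highest value. Capitals mark the NF-Y motif CCAATCA on the other strand, which begins 172 and 57 bases before the start.
Ebp: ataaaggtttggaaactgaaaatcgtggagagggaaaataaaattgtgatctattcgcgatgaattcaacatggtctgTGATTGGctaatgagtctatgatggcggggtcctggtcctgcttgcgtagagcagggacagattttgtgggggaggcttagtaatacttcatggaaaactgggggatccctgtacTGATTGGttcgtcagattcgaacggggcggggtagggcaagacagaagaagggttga

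Of the promoters with the smallest p, 4 belong to microRNA genes, which encode short RNAs that silence messages through their seed, bases 2 to 8, here in capitals. Both arms of miR-6978 and miR-6965, the 3p arm of miR-126a and both arms of miR-126b are shown, from RefSeq. No seed is shared among these 7 RNAs.
mmu-miR-6978-5p: aAGGGGUGagagagaagcuggug
mmu-miR-6978-3p: aCGGCUUCacucucacccugcag
mmu-miR-126a-3p: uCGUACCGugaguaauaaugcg
mmu-miR-126b-5p: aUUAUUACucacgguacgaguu
mmu-miR-126b-3p: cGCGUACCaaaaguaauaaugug
mmu-miR-6965-5p: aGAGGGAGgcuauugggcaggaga
mmu-miR-6965-3p: uCUGUGCUcggucucgcuccag

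With all 8 libraries no promoter rose or fell. By edgeR 0 of 41703 promoters tested passed (0.0%). Before adjustment, a p under 0.05 was reached by 155 promoters on the higher side (0.372%) and by 147 on the lower side (0.352%). Evenly spread p-values would put a share of 0.05 under that limit, more than was seen. A single promoter, that of Mir6978, was called by DESeq2 (1) and none by limma-voom (0). All 4 atorvastatin libraries lay above all 4 controls at 221 promoters (0.53%) and below them at 184 (0.441%). With one promoter per gene these shares were 0.54% and 0.532%. In the 6-library fit 5 of 41787 promoters passed by edgeR (0.012%). Those of Hamp, Mir6978, Tnfsf14 and Gm29684 rose (0.00957%) and that of Gm20594 fell (0.00239%). At an unadjusted p under 0.05 there were 713 on the higher side (1.71%) and 353 on the lower side (0.845%). All 3 remaining atorvastatin libraries lay above all 3 controls at 1594 promoters (3.81%) and below them at 1672 (4.0%). DESeq2 called 2 promoters in these 6 libraries and limma-voom 48, of which 46 were lower. Counts were also simulated with the sizes and fitted spread of these libraries, from the same mean profile for every library. They hold no outlying library and no trend with openness, so recovery in the real fits can differ. With all 8 libraries, 7 of 67 simulated 2-fold changes were recovered and 34 of 66 of those of 4-fold, and with 6 libraries 25 of 67 and 47 of 66. Among the unchanged simulated promoters 2 and 5 were called in the respective fits. Within the simulated data a change of 2-fold at a single promoter was thus mostly not detected. What the real fits could detect was not tested.

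**Figure D1:**
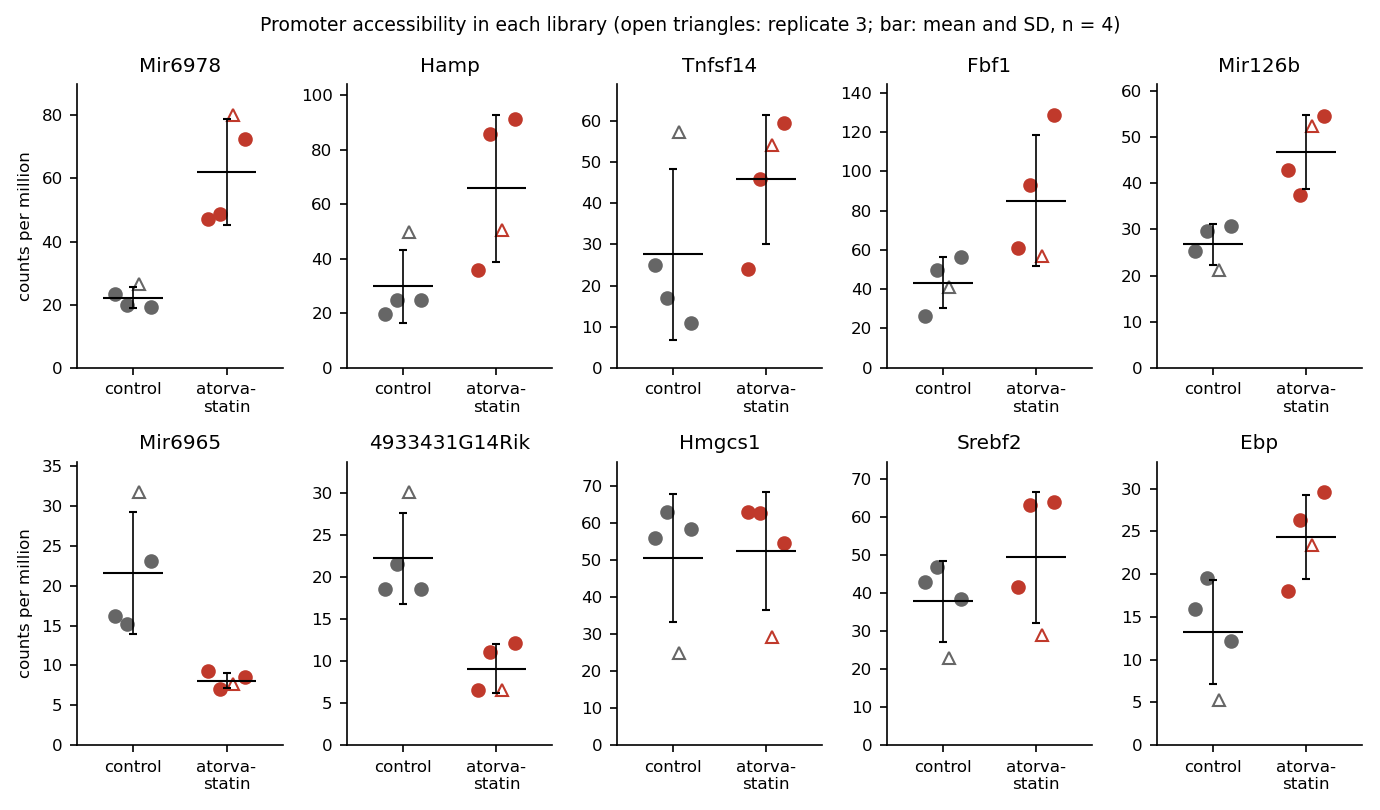
Accessibility of 10 promoters in CPM (vertical axes, linear from 0), one point per library, with control in grey and atorvastatin in red, replicate 3 of each group as an open triangle, and the mean with its SD (n = 4). At Mir6978 the atorvastatin libraries sit between 47.0 and 80.1 CPM and all controls at or below 26.5 CPM, whereas at Hmgcs1 and Srebf2 the groups overlap.

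Hamp encodes hepcidin, the hepatocyte hormone that limits iron export by binding ferroportin. Its promoter (RefSeq start on chromosome 7 at 30944029) was at 19.8, 24.9, 49.7 and 25.0 CPM in control libraries 1 to 4 and at 35.7, 85.6, 50.5 and 91.3 CPM in atorvastatin libraries 1 to 4. Control 3 was the highest control and lay above atorvastatin 1, so the groups overlapped only through it. The log2 fold change was 1.16 ± 0.34 with 8 libraries (edgeR adjusted p = 1). It was 1.64 ± 0.25 in the 6-library fit (edgeR adjusted p = 4.34e-06), where the promoter rose and the groups did not overlap. Hamp passed in 8 of 8 settings without the replicate 3 libraries, at 1.18 to 1.64. These were the 6-library fit, the same with PCN libraries, a replicate block, DESeq2, limma-voom, loess offsets, library totals and a covariate described below. With all 8 libraries it passed in voom with sample weights, at 1.51 (limma adjusted p = 7.36e-05).

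The enhancer locus nearest to Hamp held the smallest p among all loci on the higher side. It lies at chromosome 7, 30940236 to 30940418, 3702 bp downstream of the Hamp start and 2041 bp past the end of the gene. Counts were 4.5, 5, 0 and 0 in control libraries 1 to 4 and 7, 58, 99 and 79.5 in atorvastatin libraries 1 to 4, equal to 5.61, 9.49, 0 and 0 CPM and 19.7, 32.9, 132.5 and 67.2 CPM. All atorvastatin libraries lay above all controls. With so few control counts, the locus entered the fit through the atorvastatin libraries, so its rank and the separation of groups are not independent of the count filter. The fitted log2 fold change was 3.76 ± 0.97 with 8 libraries and 2.76 ± 0.63 in the 6-library fit (edgeR adjusted p = 1 and 0.756). It did not pass in any setting where it was tested, with a lowest limma adjusted p of 0.181. It fell below the filter at a minimum count of 30 and on leaving out atorvastatin 2, 3 or 4 alone. Deposited regions fall into 12 width classes. Each class was read here, from the values, as the peak set of the library where its relative level was highest, which no label or header states. The locus consists of a single region of the width class of atorvastatin 3, the library where it was highest. Its part in the result was not tested, and the value without that library and control 3 is the 6-library one. Within 50 kb of the Hamp start no other feature reached these values on the higher side. The paralogue Hamp2 was at 0.44 ± 0.57, and at -0.40 ± 0.47 without the 2 libraries. Lsr, a lipoprotein receptor gene, was at 0.22 ± 0.32 and 0.40 ± 0.28 in the respective fits, and Fam187b at 0.32 ± 0.33 and 0.48 ± 0.29. Loci 10303 and 20565 bp upstream of Hamp were at 0.28 ± 0.42 and 0.79 ± 0.58 with 8 libraries. In the 6-library fit they were at 0.59 ± 0.32 and 0.90 ± 0.38. Below 0 in both fits were Mag, at -0.83 ± 0.55 and -1.28 ± 0.50, and a locus 35061 bp downstream, at -0.36 ± 1.38 and -0.55 ± 0.81.

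Other genes of iron handling were taken from a list of 31 tested genes. By edgeR, Hamp alone among them passed in the 6-library fit (1 of 31), and none with all 8 libraries (0 of 31). In the 8 libraries 23 of 31 lay above 0, 74.2% against 57.0% of all genes by their most open promoter, and the list's median of 0.054 was close to the 0.055 of all 24445 genes. In the 6-library fit 28 of 31 lay above 0 (90.3% against 44.3%), with a median of 0.16 against -0.055. Id1, a target of BMP signalling as Hamp is, was at 0.43 and 0.74 in the respective fits, the transferrin receptor gene Tfr2 at 0.31 and 0.33, and the ligand gene Bmp6 at 0.02 and 0.07. Smad4, which encodes the shared partner of the BMP-activated SMADs, was at -0.44 with control 3 at 72.1 CPM against 27.6 to 42.0 CPM in the other controls, and at 0.03 in the 6-library fit. GGCGCC was found, on either strand, in the 250-base windows of Bmpr1a, Hamp, Neo1, Smad5 and Tfrc, 5 of 32 windows of this list (15.6%), and in 9.59% of all 32851 windows.

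Mir6978 lies on chromosome 17 at 57217172 to 57217228, inside the body of the complement gene C3 and on the same strand, 10908 bp downstream of the C3 start, so reads at it are equally reads inside C3. It was at 23.3, 20.0, 26.5 and 19.2 CPM in control libraries 1 to 4 and at 47.0, 48.6, 80.1 and 72.5 CPM in atorvastatin libraries 1 to 4. Every atorvastatin library lay above every control. The means were 22.2 ± 3.32 and 62.1 ± 16.8 CPM (SD, n = 4), and the log2 fold change was 1.48 ± 0.27 (edgeR adjusted p = 0.777), the smallest p of the 8-library fit. In the 6-library fit it was 1.41 ± 0.23 (edgeR adjusted p = 1.79e-05), and it passed in 8 of the 8 settings with 6 libraries, at 1.23 to 1.42. Leaving out any single library kept it between 1.33 and 1.59.

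Most neighbouring features also lay above 0, but not all. A locus 22477 bp downstream of the C3 start was at -0.30 ± 0.74 and one 47142 bp upstream at -0.64 ± 0.97. In the 6-library fit they were at 0.43 ± 0.48 and -0.23 ± 0.49. C3, the central complement component and an acute phase protein made by hepatocytes, had its own promoter at 33.5, 38.7, 44.0 and 55.1 CPM in the controls and at 50.6, 74.5, 48.4 and 75.9 CPM with atorvastatin. These groups overlapped, at 0.56 ± 0.27 with 8 libraries and 0.70 ± 0.26 in the 6-library fit (edgeR adjusted p = 1 and 0.981), and the C3 promoter passed in 1 of the 8 settings with 6 libraries. A locus 5174 bp upstream of C3 lies at chromosome 17, 57233109 to 57233401, across the edge of the Trip10 body at 57233220. It was at 70.2, 60.7, 44.7 and 88.8 CPM in the controls and at 135.4, 161.2, 194.1 and 137.0 CPM with atorvastatin. There the groups were well apart, at 1.26 ± 0.37 and 1.05 ± 0.32, but the locus did not pass (edgeR adjusted p = 1 and 0.993). It holds regions of 8 width classes, those of atorvastatin 2 to 4, control 4 and all PCN libraries. Tnfsf14, which encodes the TNF superfamily ligand LIGHT, starts 33955 bp downstream of the C3 start. Its promoter was at 25.0, 17.0, 57.4 and 10.9 CPM in the controls and at 24.0, 45.8, 54.2 and 59.5 CPM with atorvastatin, and rose in the 6-library fit (1.20 ± 0.21, edgeR adjusted p = 0.000144) but not with all 8 (0.74 ± 0.38, adjusted p = 1). Atorvastatin 1 lay below control 1, so its groups overlapped even without the replicate 3 libraries, and it passed in 4 of the 8 settings with 6 libraries. Beyond C3 the promoters of Trip10 and Gpr108, 21315 and 19553 bp upstream, were at 0.14 ± 0.34 and 0.085 ± 0.36. The acute phase list had 14 of 22 genes above 0 in both fits (63.6%), against 57.0% and 44.3% of all genes. Its medians were 0.081 and 0.057, against 0.055 and -0.055 for all genes. The fibrinogen gene Fga was at -0.49 ± 0.33 and 0.053 ± 0.21.

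**Figure D2:**
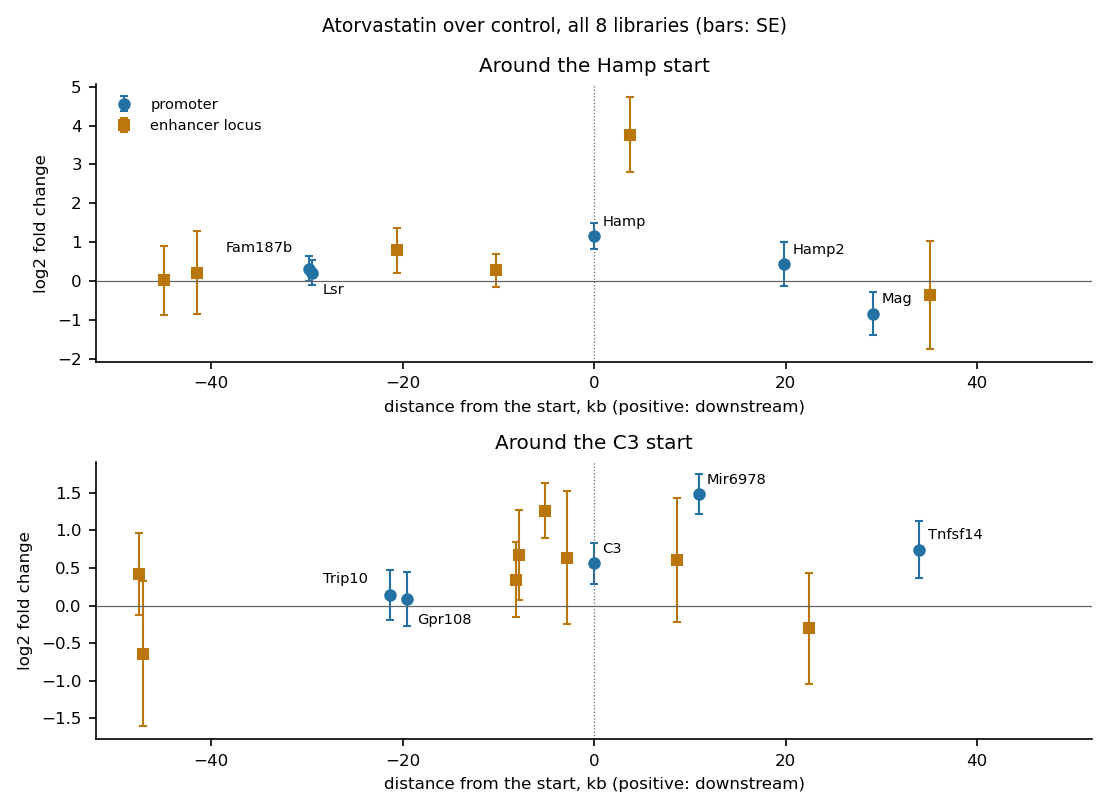
Log2 fold change with its SE (vertical axis, all 8 libraries) of promoters (circles) and enhancer loci (squares) by distance from the Hamp start (top) and the C3 start (bottom), in kb, positive in the direction of transcription. The locus 3702 bp past the Hamp start stands at 3.76 and the Hamp promoter at 1.16, with the other features there at or below 0.79. At C3 the locus 5174 bp upstream (1.26), the C3 promoter (0.56) and Mir6978 (1.48) lie above 0. Loci 22477 bp downstream (-0.30) and 47142 bp upstream (-0.64) lie below 0.

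The remaining promoters with the smallest p on the higher side in the 8 libraries were those of Mir126b, Mir126a, Gna14 and Fbf1, none of which passed (edgeR adjusted p = 1 for each). Mir126a and Mir126b overlap on opposite strands of chromosome 2, at 26591357 to 26591429, inside the endothelial gene Egfl7, and cannot be told apart by position. Mir126b was at 25.4, 29.6, 21.2 and 30.8 CPM in the controls and at 42.9, 37.4, 52.4 and 54.6 CPM with atorvastatin, a difference of 0.81 ± 0.25, and of 0.67 ± 0.22 in the 6-library fit. The groups did not overlap. Gna14, which encodes a G protein alpha subunit, was at 18.3, 23.1, 9.77 and 21.8 CPM and 25.5, 32.7, 43.8 and 31.8 CPM, also apart, at 0.87 ± 0.28 and 0.54 ± 0.21. Fbf1, a gene of the centriole's distal appendages, was at 26.2, 49.8, 41.1 and 56.4 CPM and 61.0, 93.1, 57.0 and 128.8 CPM. Its groups were narrowly apart, at 0.99 ± 0.33 and 1.14 ± 0.29, and it passed in 4 of the 8 settings with 6 libraries. Endothelial genes as a list had a median of 0.068 in the 8-library fit and -0.043 in the 6-library fit, and their summed level was 160 to 245 CPM in the controls and 168 to 300 CPM with atorvastatin. Gm29684, a long noncoding RNA gene, was at 18.0, 10.1, 44.0 and 8.34 CPM and 17.2, 44.6, 25.3 and 21.0 CPM. It rose in the 6-library fit (1.09 ± 0.22, edgeR adjusted p = 0.00508), although atorvastatin 1 lay below control 1, and stood at 0.44 ± 0.41 with 8 libraries. It passed in 3 of the 8 settings with 6 libraries.

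On the lower side Mir6965 had the smallest p. It lies inside the cyclin gene Ccnf on chromosome 17 (24240884 to 24240947) and was at 16.2, 15.2, 31.8 and 23.1 CPM in the controls and at 9.26, 7.00, 7.61 and 8.48 CPM with atorvastatin. All atorvastatin libraries lay below all controls, at -1.40 ± 0.37 and, in the 6-library fit, -1.10 ± 0.32 (edgeR adjusted p = 1 and 0.726). It passed in 2 of the 8 settings with 6 libraries and, on 8 libraries, in voom with sample weights (limma adjusted p = 0.038). The noncoding gene 4933431G14Rik was at 18.6, 21.6, 30.1 and 18.6 CPM and 6.55, 11.1, 6.57 and 12.1 CPM, likewise apart, at -1.27 ± 0.35 and -0.95 ± 0.27, and passed in 1 of these 8 settings and in voom with sample weights (limma adjusted p = 0.0328). Fut1, a fucosyltransferase gene, was at 19.2 to 26.5 CPM in the controls and 3.46 to 13.6 CPM with atorvastatin (-1.08 ± 0.38 and -0.68 ± 0.25). Control 3 was the highest library at Mir6965 and 4933431G14Rik too. At the other 3 promoters it stood further above the remaining controls. Garnl3, a putative Rap GTPase activator gene, was at 37.5 CPM there and 3.49 to 8.98 CPM in the other controls, and moved from -2.12 ± 0.74 to -1.41 ± 0.71 without both libraries, where all atorvastatin libraries still lay below all controls. Without control 3 alone it was at -0.94. Pes1, a ribosome assembly gene, was at 74.1 CPM against 14.7 to 34.0 CPM and moved from -1.11 ± 0.38 to -0.33 ± 0.23. Gltp, a glycolipid transfer protein gene, was at 69.2 CPM against 16.2 to 22.4 CPM and moved from -1.08 ± 0.38 to -0.26 ± 0.24.

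Gm20594 was the single promoter that fell in the 6-library fit. RefSeq lists Mtrnr2l as its synonym, a nuclear near copy of the mitochondrial ribosomal RNA gene, so its reads cannot be assigned with certainty. It was at 54.8, 57.7, 13.0 and 86.6 CPM in the controls and at 63.5, 2.80, 25.1 and 24.6 CPM with atorvastatin. Atorvastatin 1 lay above 2 of the 3 remaining controls, and atorvastatin 2 was far below all other libraries. The values were -1.17 ± 0.25 (edgeR adjusted p = 0.0195) and, with 8 libraries, -0.89 ± 0.56 (adjusted p = 1). It passed in 3 of the 8 settings with 6 libraries. Mitochondrial DNA moved with it. The mitochondrial locus of highest level, at bases 16027 to 16219, was at 1894.5, 2938.6, 206.6 and 2495.9 CPM and 2459.3, 238.5, 536.8 and 762.1 CPM. Mitochondrial regions held 0.0808, 0.12, 0.0225 and 0.116% of enhancer counts in the controls and 0.109, 0.017, 0.0146 and 0.0332% with atorvastatin, with low shares in libraries of both groups. Whether the Gm20594 reads come from mitochondrial DNA was not tested.

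The enzymes that lead from acetyl-CoA to squalene did not rise or fall at their promoters. Of 10 mevalonate pathway genes 6 lay above 0 with 8 libraries and 9 in the 6-library fit, with medians of 0.063 and 0.11 against 0.055 and -0.055 for all genes, and 0 passed in either fit. The median turned to -0.019 with loess offsets on 8 libraries, and to -0.032 with loess offsets and -0.024 with library totals on 6. All genes were at -0.025, -0.017 and -0.15 in these settings. Hmgcs1, whose SREBP motif is printed above, was at 56.0, 63.1, 24.8 and 58.4 CPM in the controls and at 63.0, 62.8, 29.2 and 54.7 CPM with atorvastatin. The difference of 0.046 had a 95% interval of -0.57 to 0.66, which leaves out a 2-fold change, and libraries 3 were low in both groups. Mvd, the decarboxylase that makes isopentenyl diphosphate, was at 40.8, 46.9, 42.3 and 43.0 CPM and 47.0, 69.7, 50.3 and 55.5 CPM. Its groups were narrowly apart, at 0.36 ± 0.25, the only such member of the list. Mvk, the mevalonate kinase gene, had the lowest value, -0.16 ± 0.25. Fdft1, squalene synthase, was at -0.14 with 8 libraries and 0.53 with 6.

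The enzymes after squalene had 8 of 11 members above 0 with 8 libraries (median 0.16) and 11 of 11 with 6 (median 0.14), and 0 passed. Ebp was highest, at 15.9, 19.5, 5.29 and 12.2 CPM in the controls and 18.1, 26.4, 23.4 and 29.6 CPM with atorvastatin. Atorvastatin 1 lay between controls 1 and 2, at a difference of 0.84 ± 0.33, and of 0.61 ± 0.21 without the replicate 3 libraries, of which control 3 was the lowest of all (edgeR adjusted p = 1 and 0.981). Sc5d, a sterol desaturase gene, was at 0.49 and 0.45 and Sqle, squalene epoxidase, at 0.26 ± 0.30 and 0.26 ± 0.26. Lss, lanosterol synthase, was at -0.28 ± 0.28, with control 3 at 71.2 CPM and atorvastatin 3 at 25.1 CPM, and at 0.13 ± 0.23 without them. The NF-Y motif CCAATCA was found, on either strand, in the 250-base windows of 7 of 11 windows here (Dhcr7, Ebp, Hsd17b7, Lss, Msmo1, Sc5d and Tm7sf2) and in 3 of 8 of the mevalonate pathway (Idi1, Mvd and Mvk), against 7.23% of all windows. TCACNCCAC was found in 1.05% of all windows and, in these lists, at Hmgcs1.

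Genes of SREBP2 control and lipoprotein uptake had 10 of 16 above 0 with a median of 0.15, and 12 of 16 with a median of 0.10 in the 6-library fit. The second median turned to -0.083 with loess offsets and -0.0068 with library totals, against -0.017 and -0.15 for all genes. Srebf2, which encodes SREBP2, was at 42.9, 46.9, 22.8 and 38.5 CPM in the controls and at 41.6, 63.2, 28.8 and 63.8 CPM with atorvastatin. The groups overlapped, at 0.38 ± 0.30 and 0.39 ± 0.25. Insig1, which retains SREBP2, was at 0.19 ± 0.34. Aacs, an acetoacetyl-CoA synthetase gene, was highest at 0.56 ± 0.28. Mbtps2, the protease that releases SREBP2, was lowest at -0.78 ± 0.54. There atorvastatin 3 stood at 0.923 CPM against 12.8 to 13.1 CPM in the other atorvastatin libraries, and the value without both libraries was -0.33 ± 0.27. All atorvastatin libraries lay below all controls, at 13.6 to 23.1 CPM, with and without the replicate 3 libraries. Genes of prenylation and other users of isoprenoids had a median of 0.044 and 0.12 over 20 genes. Their members of smallest p were Rabggta, a Rab prenylation subunit (0.33 ± 0.26), and Klf2, a flow-responsive factor raised by statins in endothelium (-0.29 ± 0.29 and 0.10 ± 0.25).

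No promoter of bile acid or drug metabolism passed. Cyp7a1, the rate-limiting enzyme of bile acid synthesis, was at 0.26 ± 0.45 on a low 6.92 to 16.0 CPM, Abcg5, a sterol exporter subunit, at 0.38 ± 0.30 and Soat2, which makes cholesteryl esters, at 0.37 ± 0.25. The bile acid and sterol disposal list had 17 of 26 above 0 (median 0.057) and 18 of 26 with 6 libraries (0.10). Of 42 genes controlled by the drug sensors PXR and CAR, 25 and 22 lay above 0, with medians of 0.098 and 0.015. Cyp3a11 was at 16.7, 16.9, 39.7 and 18.0 CPM with atorvastatin and 7.73 to 20.5 CPM in the controls, so that its 0.63 ± 0.35 became 0.053 ± 0.24 without both replicate 3 libraries. Nr1i2, which encodes PXR, was at -0.54 ± 0.32 with control 3 at 83.0 CPM, and at 0.025 ± 0.21 without them. Cyp2b10 was at -0.082 ± 0.49. Slco1b2, a hepatic uptake transporter gene that carries statins, was at -0.24 ± 0.44 and -0.41 ± 0.32.

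No promoter of fuel metabolism passed. Fatty acid oxidation and ketogenesis genes had 24 of 34 above 0 (median 0.13) and 25 of 34 in the 6-library fit (0.25). Acot3, a peroxisomal acyl-CoA thioesterase gene and PPARα target, was at 14.9, 27.6, 3.66 and 30.8 CPM in the controls and 20.3, 48.9, 29.98 and 53.6 CPM with atorvastatin. The groups overlapped, at 1.01 ± 0.41 and 0.85 ± 0.21 (edgeR adjusted p = 1 and 0.195). Bdh1, a ketone body dehydrogenase gene, was at 16.5, 18.2, 18.7 and 21.8 CPM and 19.9, 29.3, 32.5 and 35.5 CPM (0.66 ± 0.26 and 0.65 ± 0.21), Ppara at 0.32 ± 0.34 and Cpt1a, the gate of mitochondrial fat entry, at 0.44 ± 0.30. Fgf21, a fasting hormone gene, was at -0.27 ± 0.24 and Cd36, a fatty acid transporter gene, at -0.57 ± 0.64. Lipogenesis genes had 18 of 23 above 0 (0.10) and 20 of 23 (0.28), with Agpat2, a phosphatidate synthesis gene, at 0.72 ± 0.39, Srebf1 at 0.31 ± 0.27 and Fasn, fatty acid synthase, at -0.022 ± 0.36. Gluconeogenesis genes had 19 of 22 above 0 (0.14) and 20 of 22 (0.24), with G6pc, glucose-6-phosphatase, at 0.80 ± 0.38 and 0.48 ± 0.21 and Pck1 at 0.41 ± 0.39. Dbp, a clock output gene, was at 0.51 ± 0.33 in a clock list with a median of 0.14 and 0.23. Several of these medians turned below 0 with the scaling of the 6 libraries, where that of all genes was -0.017 with loess offsets and -0.15 with library totals. With loess offsets and library totals they were -0.0081 and -0.028 for bile acid and sterol disposal and -0.033 and -0.031 for the acute phase, and for drug metabolism -0.098 with totals. Of these values, only that of the acute phase with loess offsets lay below all genes.

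**Figure D3:**
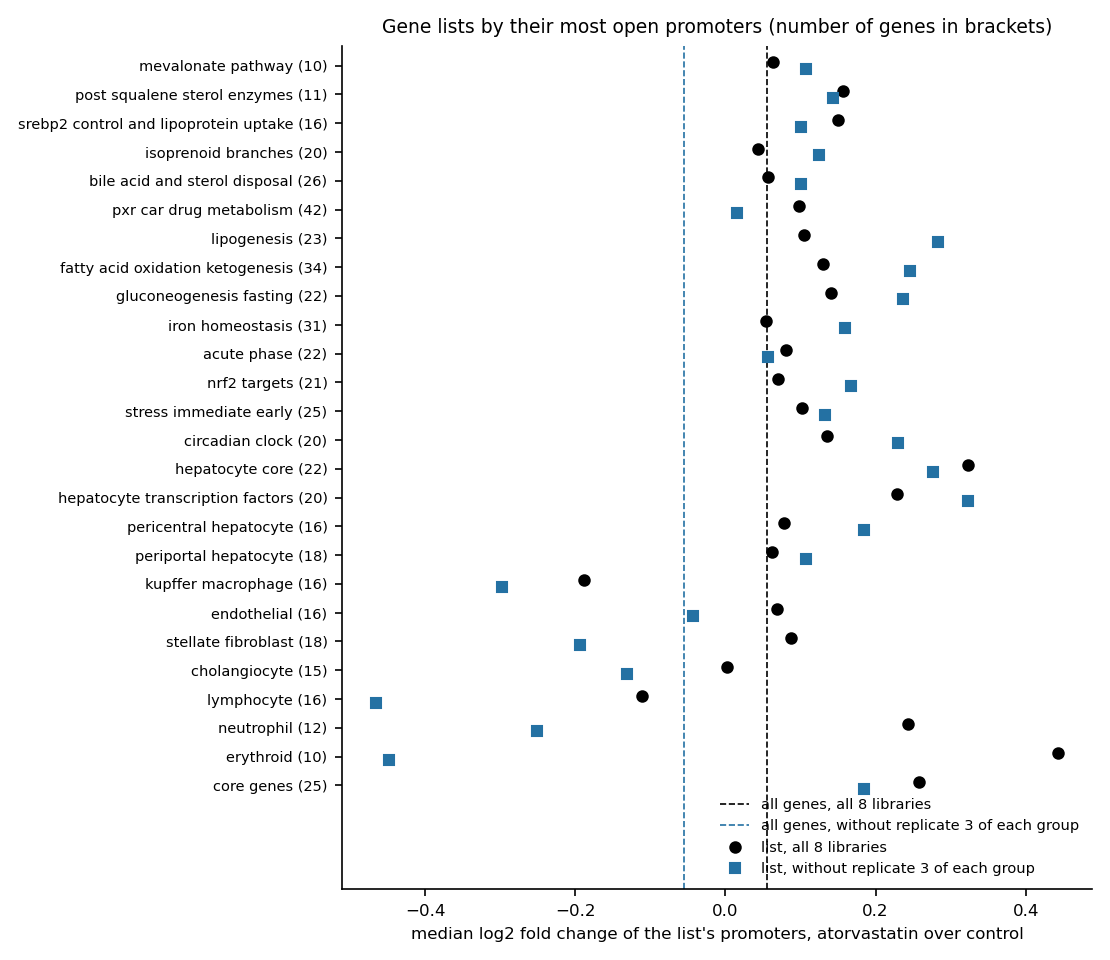
Median log2 fold change (horizontal axis) of the most open promoters of each gene list, with all 8 libraries (circles) and without the replicate 3 libraries (squares). Dashed lines mark all genes, at 0.055 and -0.055. The hepatocyte lists lie to the right of both lines, while the lymphocyte and erythroid lists move from -0.11 and 0.44 to -0.47 and -0.45.

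These list medians moved with openness and with cell type markers. In the 6-library fit the median fold change over all promoters went from -0.47 in the 20% of lowest mean CPM, through -0.30, -0.012 and 0.14, to 0.19 in the highest 20%. With 8 libraries these 5 classes lay between 0.012 and 0.098 with no such order. Hepatocyte core genes, whose promoters are among the open ones, had 20 of 22 above 0 in both fits and medians of 0.32 and 0.28. Liver transcription factor genes had medians of 0.23 and 0.32. Lymphocyte genes, at low CPM, had 6 of 16 above 0 with 8 libraries and 0 of 16 with 6 (medians -0.11 and -0.47), and Kupffer cell genes 7 and 5 of 16 (-0.19 and -0.30, but 0.070 with loess offsets on 6). The summed hepatocyte level was 534 to 1243 CPM in the controls, lowest in control 3, and 794 to 1377 CPM with atorvastatin, and that of lymphocyte genes 78.9 to 155 and 52.8 to 194 CPM, highest in atorvastatin 3. The share of promoter counts in the most open 10% was 26.1, 30.3, 29.4 and 34.2% in the controls and 28.7, 33.9, 23.0 and 33.9% with atorvastatin. With this share as a covariate in the 6-library fit, the medians of the hepatocyte core, fatty acid oxidation and mevalonate lists were 0.0016, -0.0044 and -0.066, against 0.029 for all promoters, and the lymphocyte median was -0.18. In bulk liver, fewer cells of a type and less open chromatin per cell cannot be told apart. Loess offsets in the 6-library fit, which remove a trend with openness, gave 0.12 for hepatocyte core and 0.098 for fatty acid oxidation. Hamp and Mir6978 passed under both of these settings, whereas Tnfsf14, Gm29684 and Gm20594 passed under neither. Fbf1, which did not pass in the 6-library fit itself, also passed with loess offsets and with the covariate (edgeR adjusted p = 0.00628 and 0.048).

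**Figure D4:**
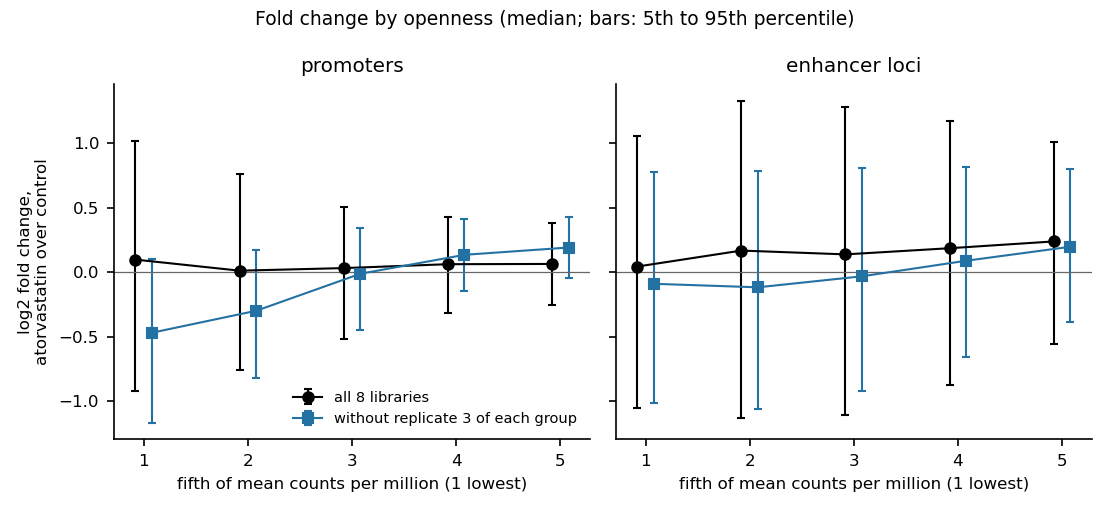
Median log2 fold change with the 5th to 95th percentile (vertical axis) of promoters (left) and enhancer loci (right) in 5 equal classes of mean CPM. With all 8 libraries (circles) promoter medians stay between 0.012 and 0.098, and without the replicate 3 libraries (squares) they climb from -0.47 to 0.19.

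Among enhancer loci none rose or fell. By edgeR 0 of 30281 loci tested passed with 8 libraries (0.0%), while 185 on the higher side (0.611%) and 37 on the lower side (0.122%) had a p under 0.05 before adjustment. All atorvastatin libraries were above all controls at 670 loci (2.21%) and below at 180 (0.594%). In the 6-library fit 0 of 34742 passed (0.0%), with 911 (2.62%) and 727 (2.09%) at an unadjusted p under 0.05. Its groups were apart at 2342 loci on the higher side (6.74%) and 1532 on the lower side (4.41%). DESeq2 and limma-voom called 0 with 8 libraries, and limma-voom called 35 with 6, of which 31 were lower. The simulated loci carry the same limits as the simulated promoters. In them 4-fold changes were recovered less often than at promoters, at 2 of 66 loci with 8 libraries and at 35 of 66 with 6. Among unchanged loci 0 and 4 were called. The median of all loci was 0.16 with TMM scaling and 0.070, 0.019 and -0.086 with DESeq2 size factors, library totals and loess offsets, so that single values are best read against that shift.

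Fold changes differed by the width classes, which were assigned to libraries by their levels and so are not independent of these values. Loci made only of regions of the atorvastatin 3 class, 90385 in the table and 1013 among those tested, had a median of 0.82 with all libraries and -0.31 without the replicate 3 libraries. Loci only of the control 3 class, 189 tested, had medians of -0.83 and -0.10. Loci of several classes that include both groups, 21241 tested, had 0.10 and -0.022. Loci only of control classes, other than control 3 alone, were at -0.53 and -0.79 over 647 tested, and those of only atorvastatin classes, other than atorvastatin 3 alone, at 0.42 and 0.13 over 910. Outside the replicate 3 classes, loci lay higher in the group to which their width classes were assigned, and no treatment difference was read from these classes.

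**Figure D5:**
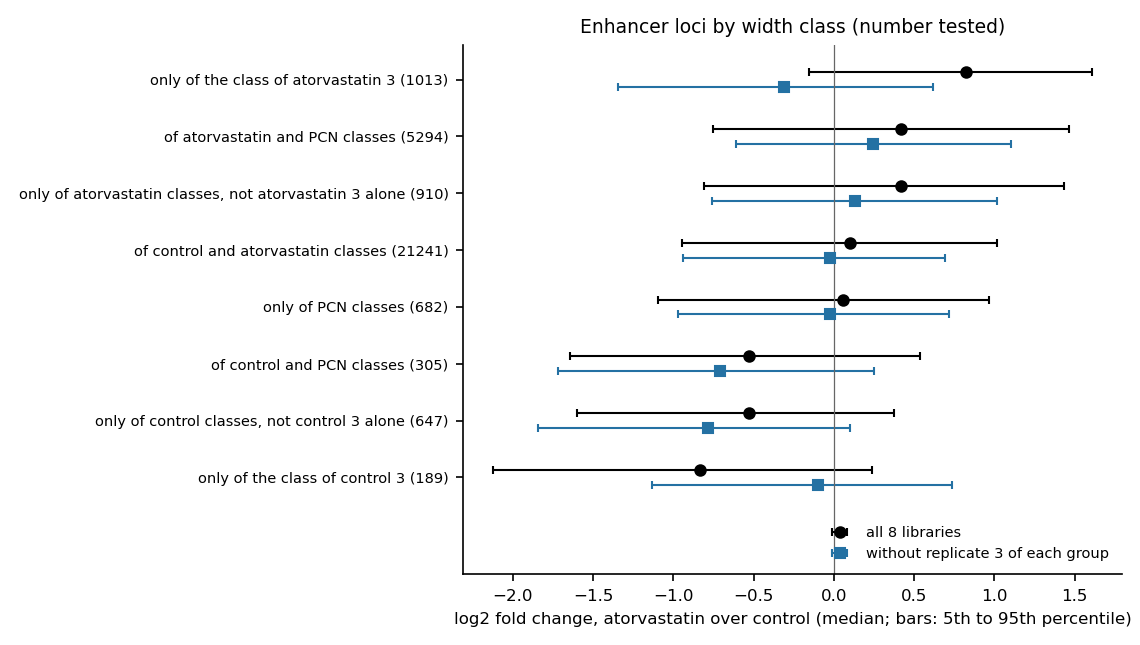
Median log2 fold change with the 5th to 95th percentile (horizontal axis) of enhancer loci by the libraries to which the width classes of their regions were assigned, with all 8 libraries (circles) and without the replicate 3 libraries (squares). The class of atorvastatin 3 alone moves from 0.82 to -0.31, and loci with control and atorvastatin classes stay near 0 (0.10 and -0.022).

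The loci with the smallest p on the higher side were, beside those at Hamp and C3, on chromosomes 17, 3 and 15, and none passed in any setting run. A locus at chromosome 17, 79995149 to 79995457, 34137 bp from Hnrnpll, an RNA-binding protein gene, was at 73.0, 81.6, 55.8 and 73.1 CPM in the controls and at 121.3, 150.4, 160.7 and 152.9 CPM with atorvastatin. The groups were apart, at 1.04 ± 0.35 and 0.93 ± 0.31, and regions of 11 width classes make up the locus. A locus at chromosome 3, 149437779 to 149438023, 7729 bp from the start of the noncoding gene Gm30382, was at 1.32 ± 0.46 and 0.92 ± 0.33. A locus at chromosome 15, 85732654 to 85732836, lies 3031 bp upstream of the Ppara start, and Ppara encodes the nuclear receptor that drives fatty acid oxidation in fasting. It was at 67.4, 68.3, 22.3 and 52.2 CPM in the controls and 84.6, 128.9, 183.4 and 111.8 CPM with atorvastatin, apart, at 1.26 ± 0.44 and 0.80 ± 0.33. It consists of the width class of atorvastatin 3 alone. The Ppara promoter itself was at 0.32 in both fits.

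On the lower side the 5 loci with the smallest p were highest in control 3. The locus 17590 bp from Coq2, a ubiquinone synthesis gene, was at 32.3, 26.6, 189.9 and 31.3 CPM in the controls and 16.9, 5.68, 8.03 and 14.3 CPM with atorvastatin, and moved from -2.67 ± 0.81 to -1.39 ± 0.59. The locus inside Ppp2r1b, a phosphatase subunit gene, was at 46.3, 56.9, 181.5 and 52.2 CPM and 33.8, 22.7, 28.1 and 25.2 CPM, and moved from -1.63 ± 0.58 to -0.96 ± 0.41. In both all atorvastatin libraries lay below all controls with and without the replicate 3 libraries. Those in Klf3 and near Armc2 and Enc1 were at -2.70, -2.78 and -2.74 with 8 libraries and at -1.84, -1.74 and -1.90 with 6, on 0 counts in atorvastatin 3 and 2.5 to 20.5 counts in the other atorvastatin libraries. With so few atorvastatin counts, these loci entered the 8-library fit through the control libraries. Their rank and low values are therefore not independent of the count filter.

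No locus within 50 kb of genes of the lists passed. Those of the mevalonate pathway had 9 of 15 above 0 (median 0.081) with 8 libraries and 5 of 16 (-0.11) with 6, against 60.2% and 0.16, and 51.1% and 0.015, for all loci near protein-coding genes. Those of SREBP2 control and lipoprotein uptake had 50 of 74 (0.27) and 49 of 80 (0.15), those after squalene 16 of 24 (0.23) and 15 of 26 (0.12), and those of hepatocyte transcription factors 116 of 175 (0.26) and 114 of 187 (0.16). Across genes, the fold change of the most open promoter and the median of the loci within 50 kb were nearly unrelated, with Pearson's r of 0.0461 over 8302 genes with 8 libraries and 0.13 over 8914 genes with 6. These points share libraries and depth and are not independent replicates.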

How the data were processed

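The deposited promoter and enhancer tables hold expected counts made by the authors, unnormalised and in steps of 0.5, which include the 8 libraries compared here. The submitters' processing notes name mm10 and the tools HOMER 4.10, STAR 2.7.9a, Trimmomatic and bedtools 2.30.0 without roles, and the rules for a promoter or an enhancer are not given in the sources used here. Counts were rounded. Enhancer regions overlapping by at least 1 bp were merged, and a locus took its region of highest mean CPM over all 12 libraries, those of PCN included. Each table was fitted in R 4.3.3 with edgeR 4.0.16 (TMM, filterByExpr with minimum count 10 and total 15, quasi-likelihood test, group only), with Benjamini-Hochberg adjustment over all features of a table at 0.05. CPM are TMM-scaled. SEs derive from the F statistic and are approximate. Alternatives used DESeq2 1.42.0 and limma 3.58.1. Gene positions and sequences are from RefSeq (GRCm38.p6, 43435 promoters matched). Named features are the 6 promoters and 5 loci of smallest p per direction, those past the threshold in the 6-library fit, 22 core genes, and each pathway list's member of smallest p per direction. Other list members in the text were picked with their values known. Some members of the lists are counted but not reported by name here. The gene lists and named features were all chosen with earlier results of these data known. On simulated data, the fits were tested with 200 changed features.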

Additional observations from a re-analysis of the deposited data

Results flagged for a closer look

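In 10 of the 136 groups of 4 libraries examined at the named features, 1 library lay far from the other 3 (Dixon's ratio above 0.829), which chance gives in about 1 group in 20. Control 3 was that library in 4 groups and atorvastatin 3 in 4.

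Control 3 was far above the other controls at the promoters of Garnl3 (37.5 CPM against 3.49 to 8.98 CPM) and Gltp (69.2 against 16.2 to 22.4 CPM). It was also far above them at the loci near Coq2 (189.9 against 26.6 to 32.3 CPM) and in Ppp2r1b (181.5 against 46.3 to 56.9 CPM). Atorvastatin 3 was far below its group at Fut1 (3.46 against 12.0 to 13.6 CPM), Mbtps2 (0.923 against 12.8 to 13.1 CPM) and the Klf3 locus (0 against 7.38 to 8.46 CPM), and far above it at Cyp3a11 (39.7 against 16.7 to 18.0 CPM). Atorvastatin 4 was high at Cd36 (12.1 against 4.15 to 4.86 CPM), and atorvastatin 2 at Mvk (49.1 against 33.2 to 35.2 CPM).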

How the results depend on the processing

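The count of 0 promoters with 8 libraries held under other scalings, filters, a threshold of 0.1, limma-voom, all 12 libraries in the fit, a replicate block (0) and leaving out each library in turn, and became 1 with DESeq2. Without control 3 and atorvastatin 3 it was 5, or 4 with PCN libraries in the fit. Voom with sample weights called 34 promoters (8 higher, 26 lower), and in the 6 libraries DESeq2 called 2, limma-voom 48 (2 higher, 46 lower), loess offsets 6, library totals 7, the share of counts in open promoters as a covariate 6 and a fit of one promoter per gene 4. Several deposited promoter entries of Fbf1, with nearly equal values, each passed in 4 settings with 6 libraries, so counts of promoters can repeat a gene. For enhancer loci, voom with sample weights called 7 and limma-voom with 6 libraries 35, and for unmerged regions 5 and 21. Both fits called the mitochondrial loci that start at bases 1942, 4866, 5106 and 16027, all on the lower side. Voom with sample weights and these tools, scalings, covariate and fit in the 6 libraries were chosen after seeing the data. Among unmerged regions 2 were called when no filter was used. Promoters with groups apart went from 405 to 3266 and loci from 850 to 3874 with 6 libraries, where fewer libraries have to be apart. The cause of the other shifts was not tested.

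Replicate numbers recur in both groups, but deviations of same-numbered libraries correlated at 0.36, -0.095, 0.066 and 0.43 across promoters. Without the replicate 3 libraries these were 0.68, -0.14 and 0.30. Differently numbered libraries reached 0.46 with 8 libraries and 0.47 with 6, so the numbers were not taken to pair the samples. With a replicate block the 6 libraries gave 36 promoters (24 higher, 12 lower) and 0 loci.

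Of 25 lists, 20 had a promoter median above that of all genes. This became 12 with the covariate in 6 libraries and 9 to 21 on leaving out a library, with 9 without atorvastatin 2 and 11 without control 1 or atorvastatin 4. For loci it was 14 of 24, and 4 with no filter, 9 with a replicate block, 9 with a block in 6 libraries, 7 with the covariate in 6 libraries, and 9 to 16 on leaving out a library, lowest without control 3.

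Signs turned at genes that did not pass in any of these settings. Without control 3 and atorvastatin 3, Fasn was at 0.17, Nr1i2 0.025, Lss 0.13, Klf2 0.10, Abca1 0.017, Smad4 0.034, Fga 0.053, G6pdx 0.039 and Atf5 0.070, each below 0 with 8 libraries. The same with PCN libraries gave Fasn 0.17, Nr1i2 0.032, Lss 0.13, Klf2 0.11, Abca1 0.020, Smad4 0.031, Fga 0.068, G6pdx 0.047 and Atf5 0.073. With DESeq2 on these 6 libraries Fasn was at 0.13, Nr1i2 0.0028, Lss 0.13, Klf2 0.11, Abca1 0.017, Smad4 0.044, G6pdx 0.0062 and Atf5 0.075. With limma-voom on them Insig1 was at -0.045, Pck1 -0.20, Nr1i2 0.0066, Lss 0.14, Klf2 0.11, Vnn1 0.093, Fga 0.093 and G6pdx 0.12. With one promoter per gene in these 6 libraries Fasn was at 0.18, Lss 0.15, Klf2 0.13, Abca1 0.048, Fga 0.070, G6pdx 0.064 and Atf5 0.093. With a replicate block in 6 libraries Cyp7a1 was at -0.0043, Fasn 0.26, Lss 0.14, Klf2 0.10, Smad4 0.066 and Atf5 0.062. With loess offsets in them Hmgcs1 was at -0.20, Insig1 -0.089, Fasn 0.055 and Pck1 -0.083, and with library totals Hmgcs1 -0.085, Cyp7a1 -0.065, Fasn 0.11, Cyp3a11 -0.070 and Lss 0.029. With the covariate in them Insig1 was at -0.051, Cyp7a1 -0.25, Pck1 -0.22, Cyp3a11 -0.055, Lss 0.056, Klf2 0.047, Smad4 0.046 and Taldo1 -0.00041.

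With 8 libraries, voom with sample weights gave Hmgcs1 -0.056, Fasn 0.20, Lss 0.032, Klf2 0.17, Vnn1 0.0050, Fga 0.11, G6pdx 0.053 and Atf5 0.10. The covariate gave Hmgcs1 -0.017, Fasn 0.035 and Alb 0.0085, loess offsets Hmgcs1 -0.057 and Fasn 0.015, library totals Hmgcs1 -0.027, limma-voom Alb 0.24, and the replicate block Fasn 0.039 and Alb 0.16. On leaving out 1 library at a time, Hmgcs1 ranged from -0.17 to 0.24, Insig1 from -0.036 to 0.41, Fasn from -0.25 to 0.27, Alb from -0.38 to 0.37 and Cyp2b10 from -0.20 to 0.043. Among the other values of named promoters and loci, 1805 kept their direction and side of the threshold and 46, at 9 promoters, passed it newly.

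Control 4 held 298630 counts over all loci. A change of 4-fold was found at 2 of 66 simulated loci with 8 libraries and at 35 of 66 with 6.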
